A study of Mus musculus with 4 samples.

Results

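Txnip and its arrestin-domain relatives Arrdc1, Arrdc3 and Arrdc4, together with the thioredoxins Txn1 and Txn2 and the thioredoxin reductases Txnrd1 and Txnrd2, were followed in mouse embryonic stem cells (ESCs) exposed to MS-275. These 8 genes were taken by symbol from the 28250 genes listed for each library, and all 8 passed the filter on low values. TBV2 is a feeder-dependent ESC line, treated here in the presence of LIF, and all groups shared this background. The paper does not state whether feeder cells were present in the cultures that were sequenced. RNA-seq was performed on 2 solvent libraries and on 2 libraries from cells given 5 µM MS-275, an inhibitor of class I histone deacetylases, each after 24 h. The second library of each condition is labelled a duplicate, and separate cultures are not stated, so the spread behind the p-values may be technical. Fits that pair the replicates take this spread from the disagreement of the pairs. Unpaired fits take it from the libraries of a condition, with the offset between replicates in it. Both draw it towards the spread of other genes. Each condition was represented by a single cell line, which limits it as a model of ESCs in general.

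Txnip binds reduced thioredoxin and inhibits it, and it also lowers glucose uptake by promoting the internalisation of glucose transporters. Its arrestin-domain relatives act mainly as adaptors that bring ubiquitin ligases of the NEDD4 family to membrane proteins. Thioredoxins reduce disulphides in other proteins, and the thioredoxin reductases, which are selenoproteins, restore thioredoxin with electrons from NADPH. Txn1 and Txnrd1 work mainly in the cytosol, and Txn2 and Txnrd2 work in mitochondria. Txnip is widely known as a gene that responds to glucose, through the factors Mlxip and Mlxipl, and to inhibitors of histone deacetylases.

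The start-site windows of Txnip and Arrdc4 are printed because they are the promoters of this family best known to be bound by the Max-like factors Mlxip and Mlxipl. Each window holds 300 bases, 250 before and 50 from the start site, read 5′ to 3′ on the gene's strand from RefSeq on GRCm38.p6. The Txnip window lies at chr3:96557707-96558006 on the plus strand and the Arrdc4 window at chr7:68749189-68749488 on the minus strand. Capitals mark CCAAT on either strand (the CCAAT box, which reads ATTGG on the opposite strand), the E-box CACGTG, and CACGAG, a variant of the E-box that was searched for after the Txnip window had been read.
Txnip: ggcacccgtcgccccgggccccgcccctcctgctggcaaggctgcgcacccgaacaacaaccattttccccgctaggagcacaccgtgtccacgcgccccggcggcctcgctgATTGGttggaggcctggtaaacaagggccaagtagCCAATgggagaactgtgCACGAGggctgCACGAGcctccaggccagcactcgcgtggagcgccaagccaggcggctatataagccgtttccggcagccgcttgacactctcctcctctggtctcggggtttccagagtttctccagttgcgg
Arrdc4: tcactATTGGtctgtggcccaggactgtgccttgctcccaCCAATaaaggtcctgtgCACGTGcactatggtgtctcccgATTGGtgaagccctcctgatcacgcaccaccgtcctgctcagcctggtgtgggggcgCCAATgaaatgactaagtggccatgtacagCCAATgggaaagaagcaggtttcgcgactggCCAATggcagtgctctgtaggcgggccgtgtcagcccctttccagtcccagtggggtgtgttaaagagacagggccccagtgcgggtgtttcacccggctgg

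The Txnip window held 2 CCAAT boxes and 2 copies of CACGAG, at −85 and −74 from the start site. Of 32817 mouse promoter windows of the same length, 11.7% held at least 2 CCAAT boxes and 6.47% held CACGAG on either strand. The pattern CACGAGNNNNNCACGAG occurred in 1 of these windows, that of Txnip, which is a description of letters chosen after they had been read. The Arrdc4 window held 6 CCAAT boxes, and at least 6 were found in 26 of all windows (0.0792%). It also held 1 CACGTG, a pattern present in 7.15% of all windows. The spaced pattern of CANGNG and CNCNTG with 5 bases between them, found in 0.558% of windows, was in neither of these promoters.

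The deposited measurement is a normalized signal value for each gene, made by the authors with Genomatix, whose formula is not given in the sources used here. The value is not a read count, and the highest in a library was 1.63 (solvent) and 1.43 (MS-275) in replicate 1 but 34.1 and 47.1 in replicate 2. Ratios of MS-275 to solvent were therefore taken within a replicate, and levels between genes only from alignments per length. Group means, SDs, overlaps between groups and fits that do not pair the replicates join both scales and carry the difference between them. Alignments of 35 bases on mm9 were deposited as well, 20008841 to 23467935 per library in the files the authors named new, where 53.2% to 54.4% repeated a position, and 9785619 to 10915650 in the files named old, where each position stood once. The alignments named new were deposited with replicate 1, whose values the column headers call old. The mitochondrial gene ND5 had values of 1.59 (solvent) and 1.41 (MS-275) in replicate 1 and was listed at 0 in replicate 2, while the new files held 0 mitochondrial alignments and the old files 13431 and 13889. Alignments are therefore named by old or new file below and values by replicate number. Of the 20336 genes that passed the filter, 32.3% had both MS-275 values above both solvent values, and the median log2 fold change was 0.20, which became −0.01 after median-ratio scaling.

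Txnip had a value of 1.03 in solvent replicate 1 and 0.558 in solvent replicate 2. With MS-275 it had 1.19 in replicate 1 and 4.05 in replicate 2. Both MS-275 values lay above both solvent values, but the difference was small in replicate 1 and large in replicate 2. The ratio of MS-275 to solvent was 1.15 in replicate 1 and 7.27 in replicate 2. The solvent mean was 0.795 ± 0.335 (SD, n = 2), and the MS-275 mean was 2.62 ± 2.03 (SD, n = 2). By limma on log2(value + 0.005), the log2 fold change was 1.53 and did not pass (Benjamini-Hochberg adjusted p = 0.532). With the replicate number as a block it was 1.53 ± 0.48 (SE), adjusted p = 0.0261 by limma. This fit leaves 1 residual degree of freedom per gene and borrows the rest of the spread from all genes. The log2 differences within the pairs were 0.20 and 2.85, and the SE does not show how far they lay apart. The call therefore rests on treating the libraries as pairs and on the borrowed spread. The Txnip log2 fold change was 0.64 without MS-275 replicate 2, 1.08 without solvent replicate 2, 1.97 without solvent replicate 1 and 2.41 without MS-275 replicate 1, and none of these 4 limma fits, run with no block, called it.

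**Figure D1:**
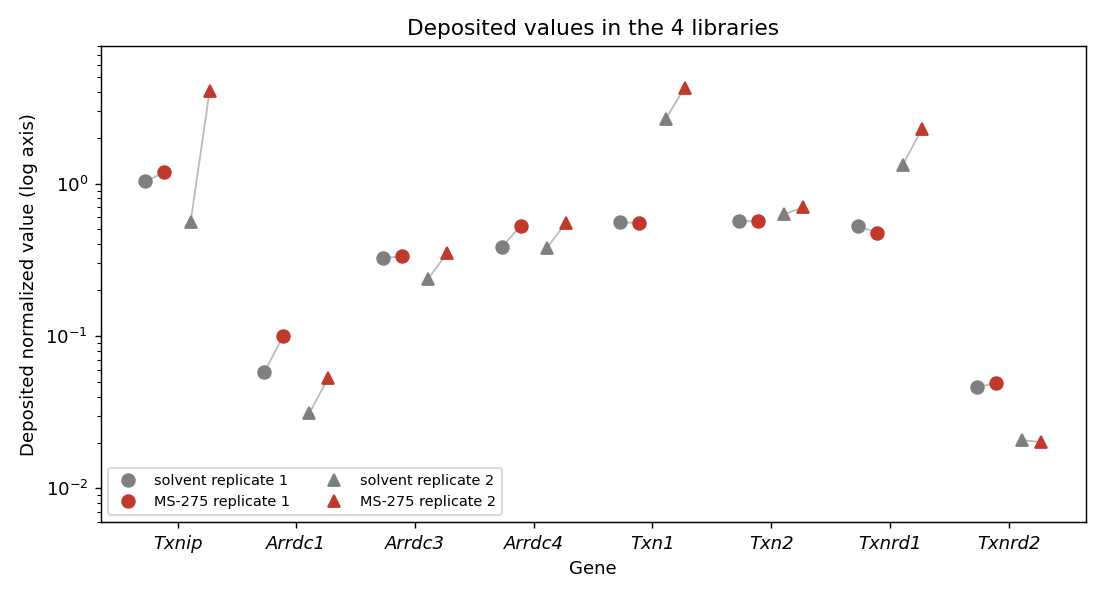
Deposited normalized value of each of the 8 genes (log axis, no unit) in the 4 libraries, with circles for replicate 1, triangles for replicate 2, grey for solvent, red for MS-275, and lines joining the libraries of 1 replicate. Txnip went from 0.558 to 4.05 in replicate 2 and from 1.03 to 1.19 in replicate 1, while Txn2 and Txnrd2 stayed close to level in both.

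The small ratio in replicate 1 stood beside a high solvent value. Txnip ranked 18 of 28250 genes in solvent replicate 1 and 3 in MS-275 replicate 1, whereas it ranked 1395 and then 118 in replicate 2. Among the 100 genes with the highest values in solvent replicate 1, the ratio in replicate 1 ran from 0.439 to 1.15 with a median of 0.882, and Txnip lay next to the top of that range. In replicate 2 the same 100 genes ran from 0.219 to 7.27, and Txnip held the highest ratio. The part that the narrow top of the scale in replicate 1 had in the Txnip ratio was not tested.

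The alignments gave a larger ratio in the new files than in the old files. Only positions are a like measure in both, because the old files hold no repeats. The Txnip gene lies at chr3:96361880-96365806 on the plus strand of mm9 (GENCODE M1), and 606 of its 3031 exon bases are shared with Gm15441, a long non-coding RNA on the opposite strand at chr3:96359688-96370724. On the remaining 2425 bases, alignments in the new files went from 2476 with solvent to 12405 with MS-275, or from 59.1 to 358 per kb of exon per 1000000 exon alignments, a ratio of 6.05. With each position counted once, the same files gave 991 and 1974 positions and a ratio of 2.45 (95% exact interval 2.27 to 2.65, which covers counting error only). The old files, in which each position stood once as deposited, gave 2254 and 2941 positions and a ratio of 1.17 (1.11 to 1.24). MS-275 was above solvent in all 3 counts, and the ratio fell from alignments to positions.

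The share of possible start positions in use shows how close to full the gene was. On both strands of the Txnip bases, 20.4% of the positions were in use in the new solvent file and 40.7% in the new MS-275 file, against 46.5% and 60.6% in the old files. Over 26989 genes, the highest share in use was 52.3% in the old solvent file and 68.9% in the old MS-275 file. Alignments per position in use on Txnip went from 2.50 to 6.28 in the new files. The highest pile at 1 position held 37 alignments with solvent and 239 with MS-275, and the 10 highest piles made up 8.03% and 10.9% of the alignments on all exons, so most of the alignments lay outside these piles. Words of 32 bases from the Txnip transcript occurred elsewhere in mm9 for 0.569% of the words.

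All 8 exons of the transcript Txnip-001 held more alignments with MS-275 in the new files. Ratios ran from 2.77 in exon 4 to 7.06 in exon 8 (chr3:96364402-96365806), which holds the end of the coding sequence and the 3′ UTR. By distinct positions the exons ran from 1.94 to 2.76 in the new files and from 1.01 to 1.25 in the old files. Exon 8, at 1405 bases the longest, went from 1753 to 10259 alignments in the new files and from 1416 to 1815 positions in the old files. Along the spliced transcript, 28 of 28 windows of 100 bases were higher with MS-275 in the new files and 26 of 28 in the old files, where the other 2 were the windows nearest the 3′ end.

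**Figure D2:**
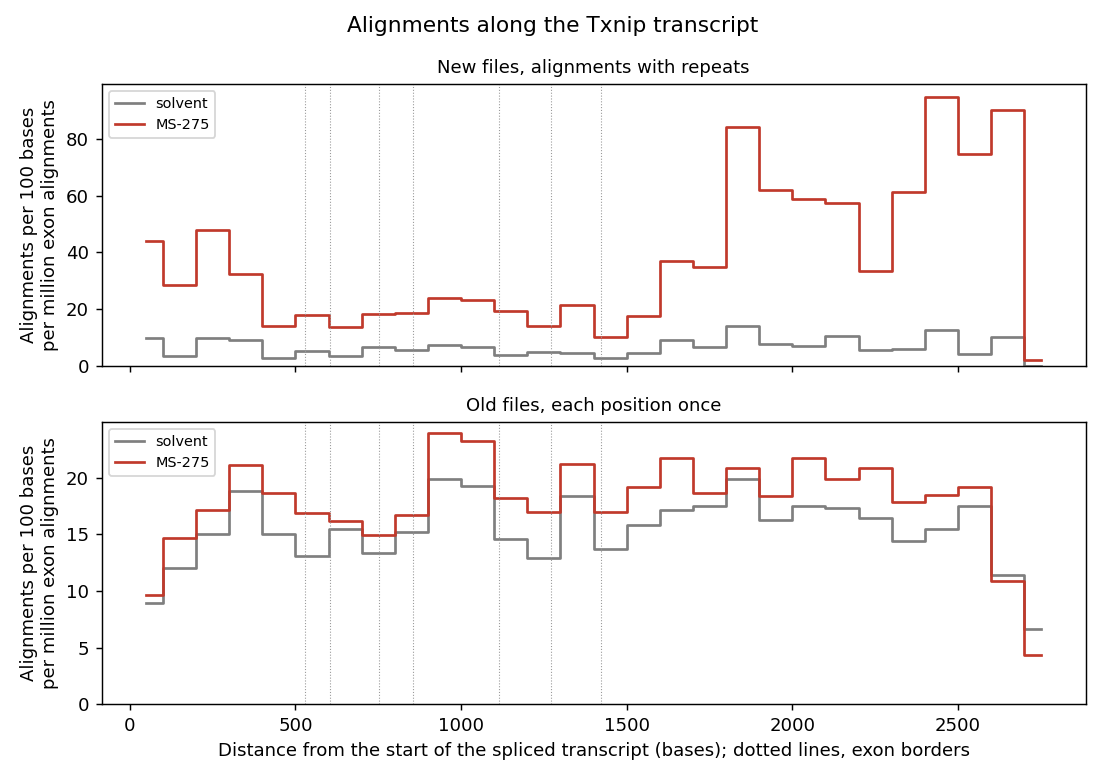
Alignments per 100 bases per 1000000 exon alignments (linear axes) by distance from the start of the spliced Txnip transcript, in the new files with repeats kept (upper panel) and in the old files with each position once (lower panel), grey for solvent and red for MS-275, with dotted lines at exon borders. The MS-275 line reached 94.7 against at most 14.0 for solvent in the new files, and 24.0 against 19.9 in the old files, with the widest gap of the upper panel in the last exon.

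Gm15441, the antisense gene, was also higher with MS-275 in both replicates. Its values were 0.359 and 0.198 with solvent (replicates 1 and 2) and 0.440 and 0.867 with MS-275, with ratios of 1.23 and 4.37. On the 1070 exon bases that it does not share with Txnip, the new files held 50 alignments with solvent and 174 with MS-275, and the old files 20 and 78. The ratios were 4.20 in the new files, where Txnip had 6.05, and 3.50 in the old files, where Txnip had 1.17. In the old files Gm15441 used 0.935% (solvent) and 3.64% (MS-275) of its positions, against 46.5% and 60.6% for Txnip. Each position stands once there, and the part of this in the gap between the genes was not tested. By limma the log2 fold change of Gm15441 was 1.20 and passed with the block (adjusted p = 0.0129) but not without it (adjusted p = 0.28). The library protocol does not mark strand, so reads in the 606 shared bases cannot be assigned to either gene. Whether the deposited values include reads in those bases is not stated. The values, their ratios and the limma call of Gm15441 may therefore hold Txnip reads. Those bases were left out of the counts on 2425 bases, but the piles, the exons (441 shared bases in exon 1 and 165 in exon 5), the windows and the plot along the transcript include them. Its level outside those bases was far below that of Txnip, at 2.71 alignments per kb per 1000000 exon alignments in the new solvent file and 11.4 in the new MS-275 file.

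The 5 genes whose pattern over the 4 libraries lay nearest to that of Txnip, among 14739 genes with a mean value of at least 0.01, were Snord13, Lgals4, Npw, 5330430P22Rik and Gm10046. Likeness was the root mean square distance between log2(value + 0.005) profiles centred on each gene's mean, and it ran from 0.106 for Snord13 to 0.220 for Gm10046. Snord13, a small nucleolar RNA, had values of 0.0417 and 0.0217 with solvent and 0.0467 and 0.209 with MS-275. Lgals4, a galectin of the gut epithelium, had 0.0335 and 0.0189 with solvent and 0.0428 and 0.117 with MS-275. In all 4 other than Npw both replicates were higher with MS-275. The list describes 4 libraries and says nothing about shared control.

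The arrestin-domain members were higher with MS-275 in both replicates, by less than 2-fold. Arrdc1, an adaptor that also takes part in the release of vesicles from the plasma membrane, had values of 0.0577 and 0.0310 with solvent (replicates 1 and 2) and 0.100 and 0.0533 with MS-275. MS-275 replicate 2 lay below solvent replicate 1, so the groups overlapped, while within a replicate the ratios were nearly equal at 1.74 and 1.72. By limma the log2 fold change of 0.72 did not pass without the block (Benjamini-Hochberg adjusted p = 0.607) and passed with it (SE 0.26, adjusted p = 0.0493). The change was 0.30 without MS-275 replicate 1, 0.32 without solvent replicate 2, 1.12 without solvent replicate 1 and 1.15 without MS-275 replicate 2, with no call in these 4 fits without the block. Reads gave like ratios in every count, 1.78 for alignments and 1.66 for positions in the new files and 1.68 for positions in the old files (1.33 to 2.15). The gene lies at chr2:24780872-24790772 on the minus strand, and only 133 and 196 alignments in the new files and 107 and 201 in the old files stood behind these ratios. After median-ratio scaling with the block the Arrdc1 change was 0.46, and the call was lost (limma, adjusted p = 0.209).

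Arrdc3 takes part in the turnover of receptors such as the beta-adrenergic receptors. It had values of 0.324 and 0.237 with solvent and 0.334 and 0.349 with MS-275. The groups did not overlap, although solvent replicate 1 and MS-275 replicate 1 differed by a ratio of only 1.03, against 1.47 in replicate 2. The log2 fold change was 0.30, and it did not pass in limma with an adjusted p of 0.826 without the block and 0.373 with it. Positions at chr13:81022645-81035296 (plus strand) gave ratios of 1.38 in the new files and 1.11 (1.03 to 1.20) in the old files. After median-ratio scaling the log2 difference was 0.01.

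Arrdc4, which like Txnip is known to respond to glucose, had values of 0.384 and 0.378 with solvent and 0.525 and 0.552 with MS-275. Both MS-275 values stood above both solvent values, with means of 0.381 ± 0.00462 (SD, n = 2) for solvent and 0.539 ± 0.0186 (SD, n = 2) for MS-275. These SDs span replicates of unlike scale, so they do not measure how well the level repeated. In replicates 1 and 2 Arrdc4 ranked 1679 and 2187 with solvent and 526 and 1567 with MS-275. The ratios were 1.37 and 1.46. The log2 fold change of 0.49 did not pass in limma, with an adjusted p of 0.698 without the block and 0.145 with it. In these fits each gene's spread is drawn towards that of genes of like level. After quantile normalization with the block the log2 fold change was 0.68 and the adjusted p was 0.0215 by limma. Median-ratio scaling with the block left a change of only 0.21, which did not pass (limma, adjusted p = 0.562). Arrdc4 passed in 1 of the 6 fits run with the block, the one after quantile normalization. Reads at chr7:75881931-75894127 (minus strand) gave 1.48 for alignments and 1.38 for positions in the new files and 1.32 (1.24 to 1.41) for positions in the old files.

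Of the remaining arrestin-domain paralogs, Arrdc2 had values of 0.0442 and 0.0219 with solvent and 0.102 and 0.104 with MS-275, with no overlap and ratios of 2.31 and 4.74. By limma its log2 fold change of 1.57 had an adjusted p of 0.157 without the block and 0.00073 with it. It was also called by limma-voom on distinct positions without the block (1.30, adjusted p = 0.0187). Read positions gave ratios of 3.48 (2.74 to 4.47) in the new files and 2.23 (1.75 to 2.86) in the old files. Arrdc5 was barely measured, with values between 0.00143 and 0.00171 and between 1 and 3 alignments per library.

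Of the thioredoxins, Txn1 passed in none of the fits that were run. Its values were 0.561 and 2.64 with solvent and 0.549 and 4.24 with MS-275. Replicate 2 was higher than replicate 1 by a ratio of 4.71 with solvent and 7.72 with MS-275, more than either of its ratios between the conditions. The replicates differ in scale, so this offset is no measure of spread for the change with MS-275. The ratio of MS-275 to solvent was 0.978 in replicate 1 and 1.60 in replicate 2, and its log2 fold change of 0.32 did not pass (limma, adjusted p = 0.957, or 0.544 with the block). The alignments at chr4:57956245-57969283 (minus strand) were the most repeated of the 8 genes, with 10.3 per position in use in the new solvent file and 12.6 with MS-275. Their ratio fell from 1.66 for alignments to 1.38 (1.19 to 1.59) for positions in the new files, and it was 0.962 (0.828 to 1.12) in the old files. Words of 32 bases from its transcript occurred elsewhere in mm9 for 10.6% of the words, the highest share among the members, so Txn1 reads may be shared with near-identical copies and its values are uncertain.

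Txn2, the mitochondrial thioredoxin, had values of 0.569 and 0.631 with solvent and 0.564 and 0.699 with MS-275, and the groups overlapped. The ratios were 0.992 and 1.11, and the log2 fold change of 0.07 had an adjusted p of 0.984 by limma and 0.879 with the block. Positions at chr15:77745477-77759436 (minus strand) gave 1.01 in the new files (0.909 to 1.13) and 1.01 in the old files (0.912 to 1.12). A difference smaller than these intervals was not detectable at this depth.

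The reductases did not pass in any of the fits that were run. Txnrd1, the cytosolic enzyme, had values of 0.530 and 1.33 with solvent and 0.474 and 2.29 with MS-275. It was lower with MS-275 in replicate 1, at a ratio of 0.895, and higher in replicate 2, at 1.72. The log2 fold change of 0.31 had an adjusted p of 0.939 by limma and 0.512 with the block. Reads at chr10:82296696-82360469 (plus strand) did not follow the value of replicate 2, with ratios of 1.17 for alignments and 0.975 (0.911 to 1.04) for positions in the new files and 0.940 (0.877 to 1.01) in the old files. The 1.72 therefore has no counterpart among the counts on GENCODE M1 exons.

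Txnrd2, the mitochondrial enzyme, had values of 0.0463 and 0.0207 with solvent and 0.0488 and 0.0202 with MS-275. The libraries separated by replicate and not by condition, with ratios of 1.05 and 0.973. The log2 fold change of 0.02 did not pass in limma (adjusted p = 0.995, or 0.971 with the block), and its sign turned to −0.23 after median-ratio scaling. With 68 to 93 alignments per library at chr16:18426510-18479166 (plus strand), the position ratios of 0.968 (0.667 to 1.40) and 0.867 (0.642 to 1.17) rested on few reads and had wide intervals. Txnrd3, the remaining reductase, had 0.0599 and 0.0414 with solvent and 0.0474 and 0.0362 with MS-275, and its log2 fold change of −0.24 did not pass in limma (adjusted p = 0.914, or 0.555 with the block).

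**Figure D3:**
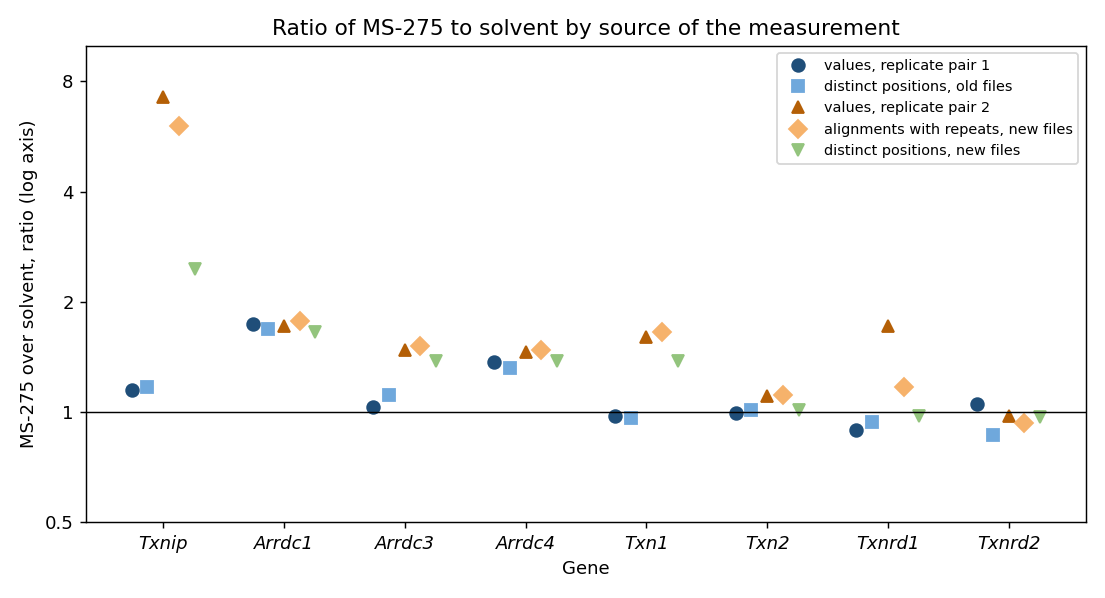
Ratio of MS-275 to solvent (log axis) for the 8 genes by source: values of replicate pair 1, distinct positions in the old files, values of replicate pair 2, and alignments and distinct positions in the new files, with the line at 1 for no difference. Txnip spread from 1.15 to 7.27, Arrdc1 stayed between 1.66 and 1.78 in every source, and the values of pair 1 lay near the old files while those of pair 2 lay near the alignments of the new files, except for Txnrd1 in pair 2 and Txnrd2 in pair 1 (1.05 against 0.867).

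Counted together, 4 of the 8 members had higher values with MS-275 in both replicates (Txnip, Arrdc1, Arrdc3 and Arrdc4) and 0 had lower values in both, against 50% and 26.5% of the 20336 genes. Both MS-275 values lay above both solvent values for 3 of the 8 (Txnip, Arrdc3 and Arrdc4), against 32.3% of all genes, and below them for 0, against 12%. At least 2-fold higher in both replicates were 0 members, against 11.5% of the 28250 listed genes, and at least 2-fold lower were 0, against 2.04%. In limma without the block 0 of the 8 passed in either direction, against 0.00492% of the genes for higher and 0% for lower, and 0 members had an unadjusted p under 0.05, which 14.6% of the genes met for higher and 2.77% for lower values. With the block 2 were higher (Txnip and Arrdc1) and 0 lower, against 21% and 6.46% of all genes. After median-ratio scaling with the block 1 was higher (Txnip) and 0 lower, against 16.6% and 14.1%, and after quantile normalization with the block 2 were higher (Txnip and Arrdc4) and 0 lower, against 13.9% and 13.2%. In limma-voom on distinct positions 0 passed without the block, against 12.4% higher and 8.16% lower of 16783 genes, and 2 were higher with it (Txnip and Arrdc1), against 24% higher and 21.4% lower. The median log2 fold change was 0.32 over the members and 0.20 over all genes, or 0.03 and −0.01 after median-ratio scaling. With 8 genes these shares are near those of all genes and are no result about the members as a set.

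Levels per length were compared between the members by distinct positions per kb of exon per 1000000 positions. Txnip was the highest of the 8 in the old solvent file at 141, but it was at 59.1 in the new solvent file, so its range took in that of Txnrd1. With MS-275 Txnip was the highest in both files, at 145 in the new and 165 in the old. Txnrd1 (68.2 and 59.3 in the new and old solvent files), Txn1 (51.8 and 49.4) and Arrdc4 (48.9 and 54.7) came next, and the ranges of Txn1 and Arrdc4 overlapped. Txn2 (25.2 and 25.5) and Arrdc3 (24.9 and 29.0) followed and also overlapped with solvent, whereas with MS-275 Arrdc3 (34.4 and 32.3) was above Txn2 (25.6 and 25.8) in both files. Arrdc1 (6.34 and 6.48) and Txnrd2 (3.17 and 4.42) were the lowest of the members with solvent. Positions understate genes whose reads repeat: by alignments per kb per 1000000 exon alignments in the new files, Txn1 led with solvent at 213 and Txnip was at 59.1, while with MS-275 Txnip was at 358 and Txn1 at 352.

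The wider arrestin family, which also holds the visual and beta arrestins, had 10 genes tested, of which 4 rose with the block (Txnip, Arrdc1, Arrdc2 and Sag), 0 fell and 6 did not pass. Of all genes tested, 21% rose and 6.46% fell with the block, and 16.6% and 14.1% did so after median-ratio scaling with the block; these shares are the background for every list count. The median log2 fold change of the arrestin family was 0.50, against 0.20 for all genes, and 3 of the 10 rose and 0 fell after median-ratio scaling with the block. Sag, the arrestin of rod photoreceptors, rose by 1.52 on the log2 scale from values of only 0.00659 and 0.00115 to 0.0227 and 0.0163. Thioredoxins and related TXNDC and TMX proteins, which include 4 of the members, had 23 genes tested, of which 3 rose, 1 fell and 19 did not pass, with a median of 0.04. Tmx4, a thioredoxin-like protein of the endoplasmic reticulum membrane, rose by 1.70, Txndc16 by 0.94, and Txndc15 changed by −0.74.

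Enzymes that draw on thioredoxin and the parallel glutathione system had calls in both directions. Among 18 peroxiredoxins, sulfiredoxin, sestrins, methionine sulfoxide reductases and related genes, 7 rose and 1 fell (21% and 6.46% over all genes), with a median of 0.27, and after median-ratio scaling 3 rose and 4 fell (16.6% and 14.1% over all genes). Msrb3, a methionine sulfoxide reductase, rose by 1.69, Srxn1, which restores overoxidised peroxiredoxins, by 0.99, and Msrb2, a mitochondrial methionine sulfoxide reductase, changed by −0.86. Of 20 genes of glutathione and glutaredoxins, 6 rose and 1 fell, with a median of 0.11, and 3 rose and 3 fell after median-ratio scaling. Glrx2, a mitochondrial glutaredoxin, rose by 1.28 and Mgst3, a microsomal glutathione transferase, by 1.03, while Gpx7, a peroxidase of the endoplasmic reticulum, changed by −1.88. Values of Gpx7 were 0.108 and 0.0807 with solvent and 0.0327 and 0.0140 with MS-275, lower in both replicates.

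Genes under NRF2, the factor that responds to oxidants and drives Txn1 and Txnrd1 among others, numbered 19, of which 5 rose and 1 fell (21% and 6.46% over all genes) with a median of 0.31, and 4 rose and 3 fell after median-ratio scaling (16.6% and 14.1% over all genes). Nqo1, a quinone reductase, rose by 1.26 and Blvrb, a biliverdin reductase, by 1.20, whereas Nfe2l2, which encodes NRF2 itself, changed by −0.65. Of 14 Max-like factors and glucose transporters, 5 rose and 0 fell, with a median of 0.29, and after median-ratio scaling 2 rose and 2 fell. Mxd4, a partner of Max that represses Myc targets, rose by 2.09, from 0.0215 and 0.0150 to 0.0960 and 0.0903, and Slc2a4, the insulin-responsive glucose transporter, rose by 0.99. The Slc2a4 call was lost with the block after median-ratio scaling (limma, adjusted p = 0.0687) and after quantile normalization (adjusted p = 0.20). Of 13 NEDD4-family ligases and their ESCRT partners, 3 rose and 1 fell, with a median of 0.05, and 1 rose and 2 fell after median-ratio scaling. Hgs, which sorts ubiquitinated cargo at endosomes, rose by 0.96 and the ligase Nedd4l by 0.69, while Nedd4 changed by −1.12. The Nedd4l call was lost with the block after the same scalings (limma, adjusted p = 0.205 and 0.0629). In limma on the values without the block, none of the 7 lists or the marker lists held a call. Over the 7 lists an unadjusted p under 0.05 was met by 14 of their 112 genes for higher values and by 1 for lower values, against 14.6% and 2.77% of all genes. All called changes in these lists are from limma with the block and Benjamini-Hochberg adjustment.

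**Figure D4:**
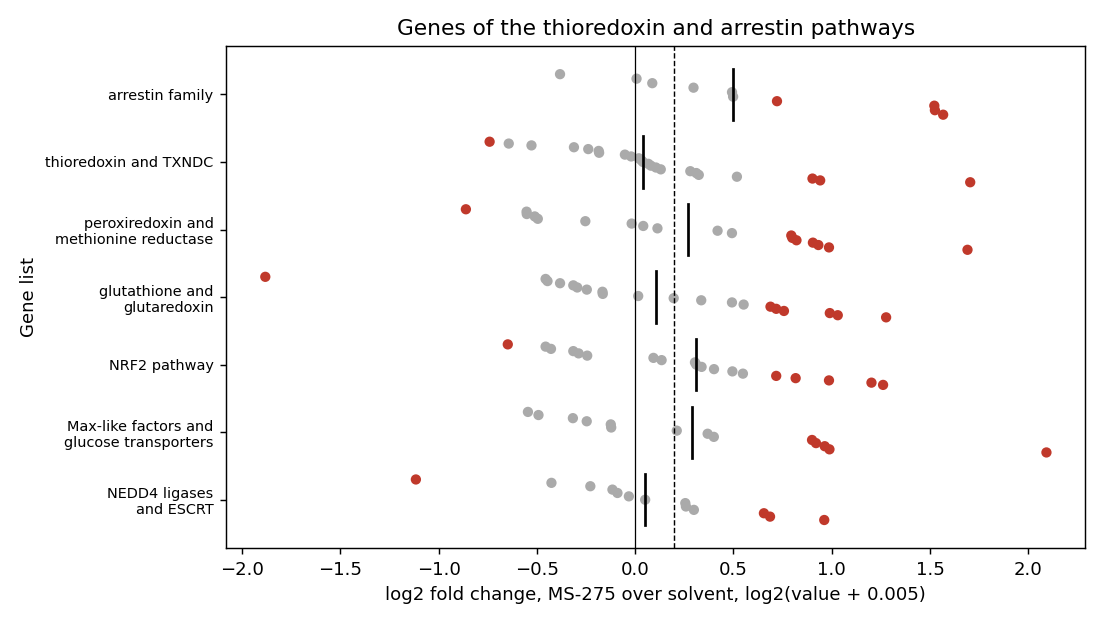
Log2 fold change of MS-275 over solvent on the log2(value + 0.005) scale for each tested gene of 7 lists, red for genes that passed limma with the replicate block, grey for the rest, black bars for each list's median and a dashed line for the median of all genes at 0.20. The arrestin family median of 0.50 lies to the right of that line, and 4 of its 10 genes are red.

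Marker genes of the culture moved with the condition. Of 12 ESC markers, 11 had lower values with MS-275 in both replicates (26.5% over all genes) and 5 fell with the block (6.46% over all genes). The ratio of their summed value was 0.794 in replicate 1 and 0.579 in replicate 2, from solvent sums of 6.91 and 25.9. Of 15 feeder fibroblast markers, 11 were higher in both replicates (50% over all genes) and 3 were lower in both (Col3a1 at −0.52, Dcn at −0.72 and Prrx1 at −0.36, named after their values were seen). With the block 8 rose and 0 fell, led by Col1a1 at 2.41 and Fbn1 at 1.37, while 6 rose and 1 fell after median-ratio scaling and 4 rose and 3 fell after quantile normalization. Their summed value went from 0.409 and 0.352 to 0.785 and 0.765, with 0 of 15 under the floor of 0.001 in all 4 libraries. The summed fibroblast markers had ratios of 1.92 in replicate 1, where Txnip had 1.15, and 2.17 in replicate 2, where Txnip had 7.27. Their part in the changes of Txnip, Arrdc1 and the other members was not tested, and in bulk RNA fewer cells of a type cannot be told apart from less RNA per cell.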

How the data were processed

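Per the labels, poly(A) RNA was primed with random hexamers, and the study sequenced it on a Genome Analyzer IIx. The authors mapped reads to mm9 and deposited a normalized signal value per gene made with Genomatix, as well as aligned positions; the aligner and the formula are not given in the sources used here. The 4 libraries were grouped by title. Genes at 0.001 or more in at least 2 libraries (20336 of 28250) were fitted with limma 3.58.1 in R 4.3.3, lmFit and eBayes with a trend, on log2(value + 0.005), and p-values were adjusted by Benjamini-Hochberg over all of them, with a threshold of 0.05. The fold understates changes of low genes.

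Replicate numbers were used as a block in a further fit. The pairing comes from the authors' headers, where both columns of replicate 1 are named old, and gene deviations from the group means correlated at 0.764 between libraries of the same number. Alignments were assigned by their middle base to GENCODE M1 exons outside other genes, and distinct positions were told apart by start and strand. Scripts ran in Python 3.11.15 with numpy 2.4.6, pandas 2.3.3 and scipy 1.17.1, and the fits were tested on simulated data. Promoter windows and their build came from RefSeq, and all 8 members had one. Of 148 entries in 9 lists, 143 matched by symbol, 3 by Entrez identifier and 2 were not listed. The members, lists, tests and alternatives were chosen with earlier results of these data known. All 8 members were named, the 5 genes nearest to Txnip, the remaining paralogs, and the 2 largest rises and falls of each list among genes called with the block. Gm15441 was named after its values were seen.

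Alternatives included no filter, a mean of at least 0.01, pseudocounts of 0.001 and 0.02, median-ratio scaling, quantile normalization, no trend, limma-voom on distinct positions, a fold of 1.5 and each library left out. Block fits with other pseudocounts, alignments with repeats and the CACGAG patterns were added after seeing the data. Shorter lists of the same values and the authors' ratios between conditions were not used.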

Additional observations from a re-analysis of the deposited data

How the results depend on the processing

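With the replicate block, 2 members were called higher instead of 0, and the pairing changed the calls of Txnip (1.53) and Arrdc1 (0.72) but of no other member. The count was 1 with the block after median-ratio scaling (Txnip 1.24), 2 after quantile normalization (Txnip 1.57, Arrdc4 0.68), 2 with limma-voom on distinct positions (Txnip 0.54, Arrdc1 0.58) and 2 with a pseudocount of 0.001 (Txnip 1.53, Arrdc1 0.77), whereas 0 passed with the block and a pseudocount of 0.02. Over these 6 blocked fits Txnip passed in 5, with adjusted p from 0.00204 to 0.0549 (limma), and Arrdc1 in 3, from 0.0274 to 0.209. Without a block, 0 members passed in any fit, and adjusted p for Txnip ran from 0.243 to 0.755 with all libraries and from 0.451 to 0.999 with a library left out.

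The 2-fold rule gave 1 member at 1.5-fold (Arrdc1) and 1 after quantile normalization, and 1 to 3 members higher when a library was left out. Without MS-275 replicate 2 it gave 1 lower (Txn1). The sign turned for 4 members. Txn2 was −0.22 after median-ratio scaling with or without the block, −0.14 with limma-voom with or without it, and −0.0857 to 0.22 over fits that left out a library. Txnrd1 was −0.23 with limma-voom and −0.22 with the block, and −0.82 to 1.44 with a library left out. Txnrd2 was −0.23 after median-ratio scaling and, by quantile normalization, −0.37, both with and without the block, −0.27 with limma-voom and −0.29 with its block, −0.10 by alignments with repeats, and −0.53 to 0.57 with a library left out. Txn1 ran from −1.15 to 1.79 with a library left out. Such fits leave a lone library that is assumed to vary like the other group, and they carry the offset between replicates. By alignments with repeats in the new files, Txnip was 2.60, Arrdc3 0.60 and Arrdc4 0.56. Beyond these constructions the cause was not tested. The residual degrees of freedom, 2 without the block and 1 with it, limit the precision of single genes.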
